A study of Mus musculus with 32 samples.

Results

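Fos, Fosb, Junb, Egr1, Egr2, Egr3, Egr4, Npas4, Nr4a1, and Nr4a3 are immediate early transcription factors, and their messenger RNA was followed in cultured cortical neurons exposed to extracellular microRNAs (miRNAs). The 10 genes were taken by symbol from the deposited table of 49671 genes, and all 10 were present and passed the filter on low counts at both time points. The neurons came from the embryonic forebrain of wild-type C57BL/6 mice and were kept in Neurobasal medium with B27 supplement. They were left untreated or exposed to a synthetic oligoribonucleotide, for 6 h or 5 d. Of the 3 oligoribonucleotides, miR-124-5p carries a miRNA sequence, as does miR-92a-1-5p, whereas Mut.oligo, made from let-7b by mutation, controls for the effect of sequence. This gives 8 conditions with 4 libraries each, 32 libraries in all, and the labels call the 4 libraries of a condition biological replicates. All groups share the same genotype and culture medium.

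Immediate early genes need no new protein synthesis for their transcription, and in neurons they rise within minutes when synaptic activity lets calcium into the cell. Calcium-dependent kinases and the ERK pathway act on the factors CREB, MEF2, and SRF, which are already bound near the start sites of these genes. The proteins made from them then drive later genes for growth factors, neuropeptides, and synaptic proteins. Fos, Fosb, and Junb are subunits of the dimeric factor AP-1. Egr1 to Egr4 are zinc finger factors that bind GC-rich sites. Npas4 is a helix-loop-helix factor found mainly in neurons and tied closely to calcium entry. Nr4a1 and Nr4a3 are orphan nuclear receptors.

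The sequence of an exposure and the start regions of the factors the results turn on are shown first. The mature miR-92a-1-5p lies on the plus strand at chr14:115044437-115044459 of GRCm38.p6, with the seed (bases 2 to 8) in capitals. Start regions cover 250 bases before the RefSeq start and 50 after it, in GRCm38.p6. Of the 10 members, 8 had such a region and 2 (Egr1 and Egr3) are only named. Capitals in the start regions mark the letters TGACG on either strand, which form the core of the cyclic AMP response element bound by CREB, and in Egr2 also the CArG box bound by SRF. For Egr2, the middle of the 5 listed starts is shown, and for Nr4a1 the listed start lies within the longer gene model of the counting annotation. Fos, Npas4, Nr4a1, Nr4a3, and Egr4 are shown since they are among the genes that were lower in every batch at 6 h, and Egr2 since it was not.
miR-92a-1-5p: aGGUUGGGauuugucgcaaugcu
Fos promoter, chr12:85473640-85473939, plus strand: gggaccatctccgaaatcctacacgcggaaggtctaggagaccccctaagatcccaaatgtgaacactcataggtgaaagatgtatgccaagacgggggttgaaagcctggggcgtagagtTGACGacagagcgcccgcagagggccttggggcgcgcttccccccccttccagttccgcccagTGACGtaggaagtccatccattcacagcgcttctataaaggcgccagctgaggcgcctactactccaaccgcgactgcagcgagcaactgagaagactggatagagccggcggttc
Npas4 promoter, chr19:4989922-4990221, minus strand: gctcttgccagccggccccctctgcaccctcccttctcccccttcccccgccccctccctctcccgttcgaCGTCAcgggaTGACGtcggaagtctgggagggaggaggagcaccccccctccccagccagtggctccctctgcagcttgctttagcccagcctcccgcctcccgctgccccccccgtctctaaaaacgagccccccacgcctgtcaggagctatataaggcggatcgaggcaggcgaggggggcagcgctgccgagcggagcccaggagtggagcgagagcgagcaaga
Nr4a1 promoter, chr15:101266596-101266895, plus strand: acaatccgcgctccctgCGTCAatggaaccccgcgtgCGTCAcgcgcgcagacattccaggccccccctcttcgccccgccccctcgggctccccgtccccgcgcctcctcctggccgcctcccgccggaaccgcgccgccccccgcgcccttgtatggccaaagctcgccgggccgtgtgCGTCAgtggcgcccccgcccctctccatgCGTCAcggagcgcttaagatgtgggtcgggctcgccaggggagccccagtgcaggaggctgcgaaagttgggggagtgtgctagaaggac
Nr4a3 promoter, chr4:48045055-48045354, plus strand: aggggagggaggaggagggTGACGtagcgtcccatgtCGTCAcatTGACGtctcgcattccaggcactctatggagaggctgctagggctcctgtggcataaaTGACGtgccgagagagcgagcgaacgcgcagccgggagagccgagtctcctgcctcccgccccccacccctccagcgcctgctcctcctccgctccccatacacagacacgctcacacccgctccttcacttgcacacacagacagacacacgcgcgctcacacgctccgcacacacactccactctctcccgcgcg
Egr4 promoter, chr6:85513540-85513839, minus strand: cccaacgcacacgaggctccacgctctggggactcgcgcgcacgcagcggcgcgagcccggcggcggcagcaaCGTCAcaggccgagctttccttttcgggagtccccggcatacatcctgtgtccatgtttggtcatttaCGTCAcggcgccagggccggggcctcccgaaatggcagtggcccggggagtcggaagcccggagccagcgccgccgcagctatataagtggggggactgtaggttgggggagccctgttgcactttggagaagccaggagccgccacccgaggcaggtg
Egr2 promoter, chr10:67537619-67537918, plus strand: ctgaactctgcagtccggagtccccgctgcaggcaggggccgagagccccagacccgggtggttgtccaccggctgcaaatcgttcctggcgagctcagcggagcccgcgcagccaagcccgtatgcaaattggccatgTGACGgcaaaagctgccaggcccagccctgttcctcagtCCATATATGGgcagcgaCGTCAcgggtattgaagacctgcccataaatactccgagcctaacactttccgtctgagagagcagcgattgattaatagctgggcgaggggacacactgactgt

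The core TGACG was present in 8 of the 8 start regions, as compared to 20.81% of 32851 start regions of 300 bases. It occurred 4 times each in Nr4a1 and Nr4a3, and 2 times each in Fos, Npas4, Egr4, and Egr2. Fosb and Junb held it once each. In Fos, it began 129 and 66 bases before the start, and in Npas4 179 and 169 bases before it. The core was present both in Fos, Fosb, Npas4, Nr4a1, Nr4a3, and Egr4, which were lower in every batch at 6 h, and in Egr2 and Junb, which were not. The complete element TGACGTCA, which contains the core, was found in 0 of the 8 regions and in 1.79% of all. The letters TATAAA, a form of the TATA box, were found in Fos and Junb, 2 of 8, and in 13.62% of all. Only these letters were sought, so the stretch TATATAAG in Npas4 and Egr4 was not counted. The Egr site GCGTGGGCG was found in 0 of 8 (0.6119% of all), and the variant GCGGGGGCG in Fosb and Nr4a1 (2.907% of all). The CArG box was found in Egr2 only, 1 of 8, and in 1.629% of all, whereas the most upstream of the 5 Egr2 starts held neither it nor the core. The next of these starts held the CArG box but not the core. The count of 8 for the core thus depends on the Egr2 start chosen. All motifs were sought on both strands. A match describes the letters of these windows and does not show that a factor binds there.

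The libraries held between 24514090 and 73626029 counted reads. Levels are given as CPM, read counts scaled by the total of the library. The lowest count of any member was 12, for Fosb at 6 h. A floor of 3 counts is 0.122 CPM in the smallest and 0.0407 CPM in the largest library, for counting error only. The 4 libraries of each condition come from 4 different experiment batches, as the labels name them, and p-values measure the spread between these libraries. Replicates of a condition differed beyond sampling noise in all 48 pairs, with a chi-square per degree of freedom between 6.601 and 101. Neuron markers summed to between 4680 and 6266 CPM in every library. Microglia markers summed to between 5.80 and 18.9 CPM. P2ry12, the lowest of them at 6 h, was at 0 in 2 libraries at 6 h, and no other microglia marker was at 0 in any library. At 6 h, C1qa ran from 1.66 to 5.67 CPM and Csf1r from 1.06 to 3.01 CPM. In bulk RNA, fewer cells of a type and less RNA per cell cannot be told apart. The 4 untreated libraries of 6 h lie in 4 different batches together with 8 treated libraries (2 Mut.oligo, 2 miR-124-5p, 4 miR-92a-1-5p). Of the untreated libraries of 5 d, 3 have treated partners, 7 in all (3 Mut.oligo, 2 miR-124-5p, 2 miR-92a-1-5p). The libraries alone in their batch are Mut.oligo replicate 4 and miR-124-5p replicate 3 at 6 h and untreated replicate 3 at 5 d. At 5 d, untreated replicate 2 and Mut.oligo replicate 2 share a batch and stand apart, with Fos at 5.33 and 4.77 CPM against 12.1 to 36.6 CPM in the other 14 libraries. The tests of 5 d without a covariate and those between time points were therefore also run without these 2 libraries. The fits of 5 d with the batch covariate, the within-batch differences, the spreads, and the search for similar genes keep them.

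Nr4a3 was by far the most abundant of the 10 messages. Per kilobase of annotated exon, its median level over the 16 libraries of 6 h was 31.5 CPM, followed by Nr4a1 at 4.38 and Fos at 3.44 CPM per kilobase. Egr1, Junb, and Npas4 lay between 1.39 and 2.62 CPM per kilobase, and Egr3, Egr4, Egr2, and Fosb between 0.195 and 0.661. At 5 d, Nr4a3 was still first at 22.1 CPM per kilobase, and Fosb still last at 0.958. Egr1 was at rank 4 at 6 h and at rank 2 at 5 d, with 15.4 CPM per kilobase ahead of Fos at 10.2. Across the 8 conditions, all 7 neighbouring pairs in the order of group means overlapped in their libraries for each of the 10 genes but the Egr genes. For Egr1, Egr2, Egr3, and Egr4, 6 of 7 pairs overlapped, and the gap lay between the lowest mean of 5 d and the highest mean of 6 h. The order of the treatments within a time point was thus not resolved for any gene by the group ranges alone.

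**Figure D1:**
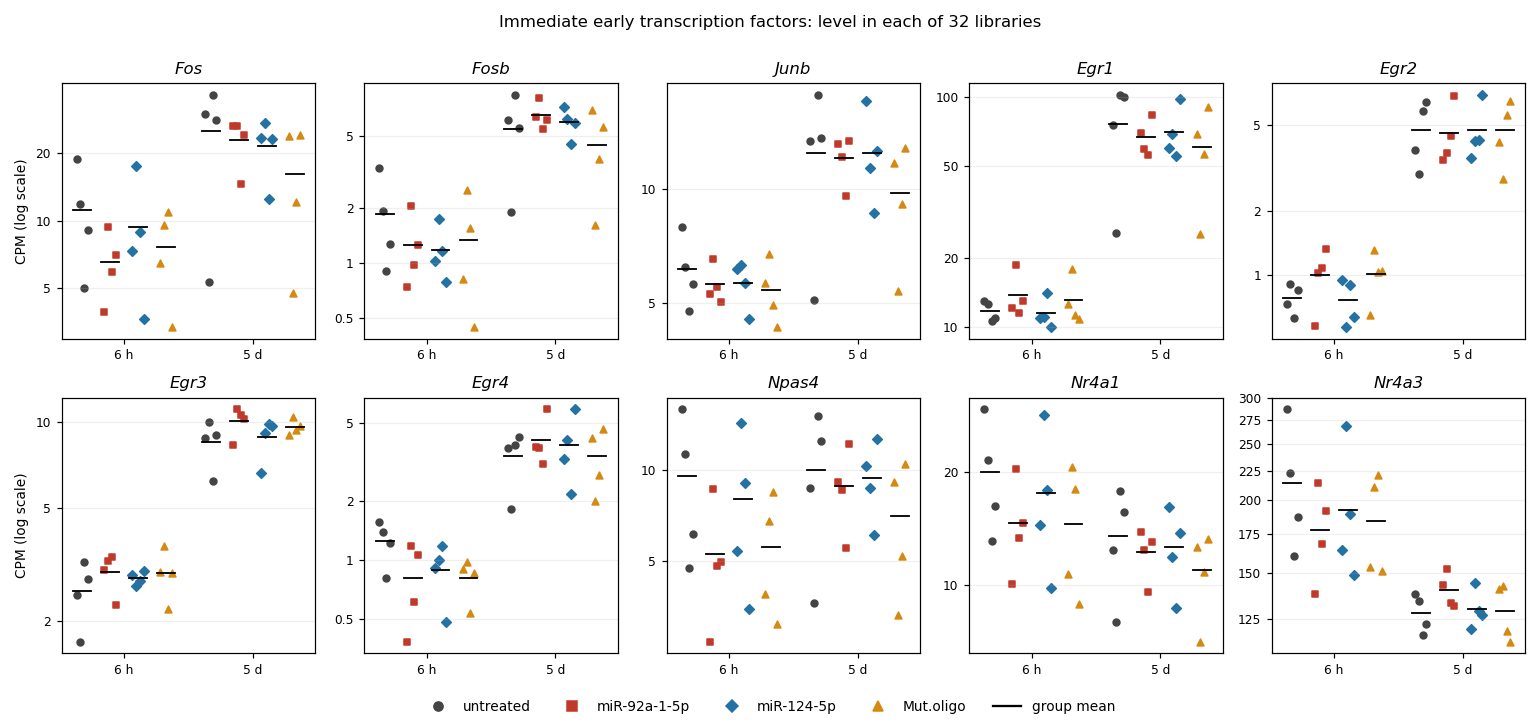
Level of each of the 10 genes in CPM (log scale) in every library, by treatment at 6 h and 5 d; each point is a library and the bar is the group mean. The 4 Egr genes are higher at 5 d than at 6 h in every library, and untreated and Mut.oligo replicate 2 lie low at 5 d for Fos and Egr1.

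Which of these genes respond to an exposure of 6 h was asked by comparing each oligoribonucleotide to untreated. Npas4 held the largest difference among the members after miR-92a-1-5p. Its gene lies at chr19:4984355-4990316 on the minus strand (GRCm38, as are all gene positions). It was at 15.9, 11.3, 4.74, and 6.12 CPM in untreated replicates 1 to 4 and at 2.69, 8.66, 4.81, and 4.94 CPM after miR-92a-1-5p. With miR-124-5p, Npas4 was at 5.37, 14.3, 9.02, and 3.45 CPM, and after Mut.oligo at 3.88, 6.75, 8.42, and 3.09 CPM. Untreated replicates 1 and 2 were high and replicates 3 and 4 low, so that the 4 groups overlapped. Within batches, however, Npas4 was lower in each of the 8 treated libraries than in its untreated partner. The mean log2 difference within batches was -0.80 (range -1.19 to -0.35) after miR-92a-1-5p, -0.79 (-0.91 to -0.66) after Mut.oligo, and -0.32 (-0.45 to -0.20) after miR-124-5p.

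Among the AP-1 subunits, Fos (chr12:85473890-85477273, plus strand) was at 18.8, 11.9, 4.98, and 9.12 CPM in untreated replicates 1 to 4. It was at 3.90, 9.40, 5.91, and 7.06 CPM after miR-92a-1-5p, at 6.49, 9.57, 10.998, and 3.35 CPM after Mut.oligo, and at 7.30, 17.6, 8.90, and 3.63 CPM after miR-124-5p. The groups overlapped, whereas within batches the untreated library was above each of its 8 treated partners. The mean log2 difference within batches was -0.68 (-1.001 to -0.35) after miR-92a-1-5p, -0.63 (-0.77 to -0.50) after Mut.oligo, and -0.39 (-0.45 to -0.33) after miR-124-5p. Fosb, a close relative of Fos, ran between 0.446 and 3.32 CPM, the widest range in proportion among the members at 6 h (7.43-fold). It was also highest in the untreated library of each batch, with mean differences of -0.83 after Mut.oligo, -0.25 after miR-124-5p, and -0.48 after miR-92a-1-5p. Junb, their dimer partner, ran between 4.31 and 7.93 CPM and was highest in the untreated library in 2 of 4 batches. Junb shares 173 exon bases with Prdx2 on the opposite strand, and reads were counted by strand.

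The orphan receptors Nr4a1 and Nr4a3 were below untreated in all 8 treated libraries when compared within batches. Nr4a1 (chr15:101254269-101274795, plus strand) was at 29.3, 21.4, 13.1, and 16.1 CPM in untreated replicates 1 to 4 and at 10.04, 20.4, 13.3, and 14.6 CPM after miR-92a-1-5p. It was at 10.6, 20.5, 17.9, and 8.89 CPM after Mut.oligo and at 14.4, 28.3, 17.8, and 9.80 CPM after miR-124-5p. Nr4a3 (chr4:48045153-48086447, plus strand) was at 287, 223, 160, and 188 CPM in untreated neurons and at 138, 214, 168, and 191 CPM after miR-92a-1-5p. Both were highest in the untreated library of all 4 batches, and in both the groups overlapped. The mean log2 difference of Nr4a1 within batches was -0.66 (-0.71 to -0.61) after Mut.oligo, -0.29 (-0.41 to -0.17) after miR-124-5p, and -0.44 (-0.55 to -0.28) after miR-92a-1-5p. For Nr4a3, it was -0.34 after Mut.oligo, -0.16 after miR-124-5p, and -0.26 after miR-92a-1-5p.

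The 4 Egr genes differed from each other in direction. Egr4 (chr6:85511121-85513589, minus strand) was at 1.56, 1.40, 0.815, and 1.22 CPM in untreated replicates 1 to 4 and at 0.385, 1.18, 0.611, and 1.06 CPM after miR-92a-1-5p. Within batches, Egr4 was lower in all 8 treated libraries, with mean log2 differences of -0.94 after Mut.oligo, -0.55 after miR-124-5p, and -0.67 after miR-92a-1-5p. Egr1 was instead above the untreated library in 4 of 4 miR-92a-1-5p libraries, by a mean of 0.20 (0.04 to 0.52) on the log2 scale. The untreated library was the highest of its batch in 0 of 4 batches for Egr1 and Egr2 and in 1 of 4 for Egr3. After miR-92a-1-5p, both Egr2 and Egr3 were above untreated in 3 of 4 batches. Both genes were low, with 0.572 to 1.32 CPM for Egr2 and 1.69 to 3.68 CPM for Egr3.

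**Figure D2:**
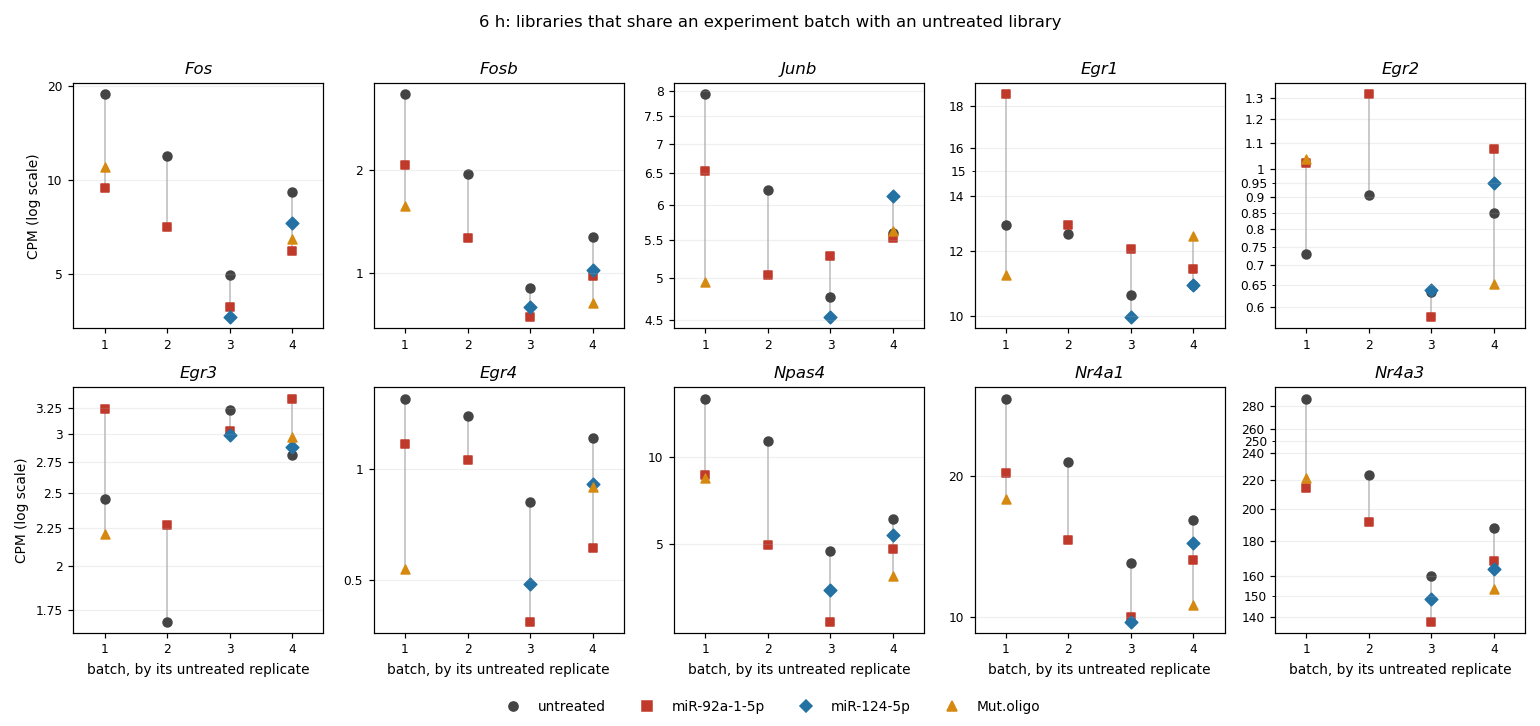
Level of each gene at 6 h in CPM (log scale) in the batches that hold an untreated library; each column is a batch, named by its untreated replicate, and lines join the libraries of a batch. The untreated library is the highest in 4 of 4 batches for Fos, Fosb, Egr4, Npas4, Nr4a1, and Nr4a3, and in 0 of 4 for Egr1 and Egr2.

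Counted over the members, 6 of 10 (Fos, Fosb, Egr4, Npas4, Nr4a1, and Nr4a3) were lower after miR-92a-1-5p in all 4 shared batches, where 12.6% of all 18755 genes tested were. With 4 pairs, an exact sign-flip permutation test (two-sided) cannot go below p = 0.125, which all of these genes and Egr1 reached. After miR-124-5p, 7 of 10 members were lower in both shared batches (27% of all genes), and after Mut.oligo also 7 of 10 (27.2% of all genes). Higher in every shared batch were 0 members after Mut.oligo (27.5% of all genes), 1 (Egr2) after miR-124-5p (26.1%), and 1 (Egr1) after miR-92a-1-5p (12.6%). The untreated library was the highest of its batch in all 4 batches for 6 of 10 members and for 4.58% of all genes. These counts share the untreated libraries and are not independent. In each of the 8 pairs of a treated and an untreated library, 7 to 9 of 10 members were lower, with a median over the members between -0.69 and -0.15. The median over all genes in the same pairs lay between -0.01 and 0.01.

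In the fit of all 16 libraries of 6 h without a covariate (edgeR quasi-likelihood test), 0 of 10 members passed in any comparison to untreated, and neither did any other gene (0% each). To pass, a gene needed a log2 fold change of more than 0.5 in size and a p, adjusted by Benjamini-Hochberg over all genes, under 0.05. No member had an unadjusted p under 0.05 in these 3 comparisons, and DESeq2 called 0 members as well. After miR-92a-1-5p, the log2 fold change was -0.84 (SE 0.46) for Npas4, -0.76 (SE 0.45) for Fos, and -0.59 (SE 0.32) for Egr4, with an adjusted p of 0.999 each. After Mut.oligo, Npas4 was at -0.76 (SE 0.47) and Nr4a1 at -0.45 (SE 0.33). After miR-124-5p, Fosb was at -0.65 (SE 0.48), the largest difference of that comparison. The median over the 10 members was -0.33 after Mut.oligo, and 7 of 10 were below 0 after miR-92a-1-5p and Mut.oligo each, whereas miR-124-5p had 9 of 10.

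When the batch was added as a covariate, the same edgeR test gave smaller errors for 9 of the 10 members in the comparisons to untreated, whereas that of Egr2 rose from 0.27 to 0.30 after Mut.oligo and from 0.27 to 0.31 after miR-124-5p. After miR-92a-1-5p, Npas4 fell by 0.84 on the log2 scale (SE 0.12, 95% interval -1.10 to -0.59, adjusted p = 0.00494) and Fos by 0.73 (SE 0.115, -0.98 to -0.49, adjusted p = 0.00767). These 2 of 10 members stand against 0.208% of all genes, in both directions together. Nr4a1 and Nr4a3 had an adjusted p of 0.00374 and 0.0139 at log2 fold changes of -0.45 (SE 0.0583) and -0.26 (SE 0.0457), which did not reach the minimum fold change. Fosb (-0.54, adjusted p = 0.166) and Egr4 (-0.63, adjusted p = 0.2) did not pass. After Mut.oligo, Npas4 fell by 1.04 (SE 0.152, adjusted p = 0.0267) and Nr4a1 by 0.72 (SE 0.0744, adjusted p = 0.00123), 2 of 10 members against 0.0213% of all genes. Nr4a3 had an adjusted p of 0.0288 at -0.36, and Fos an adjusted p of 0.0746 at -0.77. Within the 2 batches that Mut.oligo shared with untreated, the log2 differences were -0.66 and -0.91 for Npas4. They were -0.61 and -0.71 for Nr4a1, so for both genes each was smaller in size than in the fit. After miR-124-5p, 0 of 10 members and 0% of all genes passed by edgeR, 3 members had an unadjusted p under 0.05, and DESeq2 with the batch called 0. All 10 members were below 0 after miR-124-5p in this fit, with Fosb at -0.66 (SE 0.236, adjusted p = 0.798), Egr4 at -0.59 (SE 0.294), and Nr4a1 at -0.32 (SE 0.075, adjusted p = 0.798). Within the 2 batches shared with untreated, however, the mean log2 difference was 0.08 for Egr2 and 0.02 for Junb, so the sign of these 2 genes was not settled.

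The 6 h calls with the batch covariate rest on few libraries. Fos after miR-92a-1-5p had an adjusted p of 0.0633 to 0.0905 in edgeR without miR-92a-1-5p replicate 2 or 4 or untreated replicate 1 or 2. Npas4 after miR-92a-1-5p had an adjusted p of 0.0637 without miR-92a-1-5p replicate 4 and 0.0727 without untreated replicate 2. Npas4 after Mut.oligo was lost without any of 6 libraries, namely Mut.oligo replicate 1, untreated replicates 1 to 3, miR-124-5p replicate 4, and miR-92a-1-5p replicate 4, with an adjusted p of up to 0.252. Fos after Mut.oligo passed without any of 5 libraries (adjusted p from 0.0104). Nr4a1 after Mut.oligo passed without each of the 16 libraries in turn, with an adjusted p of at most 0.0452 and a log2 fold change between -0.78 and -0.68.

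Whether the levels differ between oligoribonucleotides was tested in 3 comparisons of 6 h. No member passed without or with the batch covariate by edgeR, at 0% of all genes in each of these fits, and DESeq2 called 0 as well. Without a covariate, no member had an unadjusted p under 0.05. With the batch covariate, 4 members had one for miR-124-5p against Mut.oligo, 3 for miR-92a-1-5p against miR-124-5p, and 1 for miR-92a-1-5p against Mut.oligo. Npas4 was 0.75 higher (95% interval 0.42 to 1.09, unadjusted p = 0.000235, edgeR adjusted p = 0.996) after miR-124-5p than after Mut.oligo. Nr4a1 was 0.40 higher (0.24 to 0.56), Fos 0.47 higher (0.16 to 0.79), and Nr4a3 0.22 higher (0.09 to 0.34), each with an adjusted p of 0.996. miR-92a-1-5p against Mut.oligo differed by 0.04 for Fos (-0.27 to 0.35), by 0.20 for Npas4 (-0.13 to 0.53), and by 0.27 for Nr4a1 (0.11 to 0.43), on the log2 scale. miR-92a-1-5p against miR-124-5p differed by -0.55 for Npas4 (-0.90 to -0.21), by -0.43 for Fos (-0.76 to -0.10), and in the other direction by 0.41 for Egr1 (0.09 to 0.72, edgeR adjusted p = 0.946). Without Mut.oligo replicate 3, Npas4 passed in miR-124-5p against Mut.oligo (0.85, adjusted p = 0.0396).

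**Figure D3:**
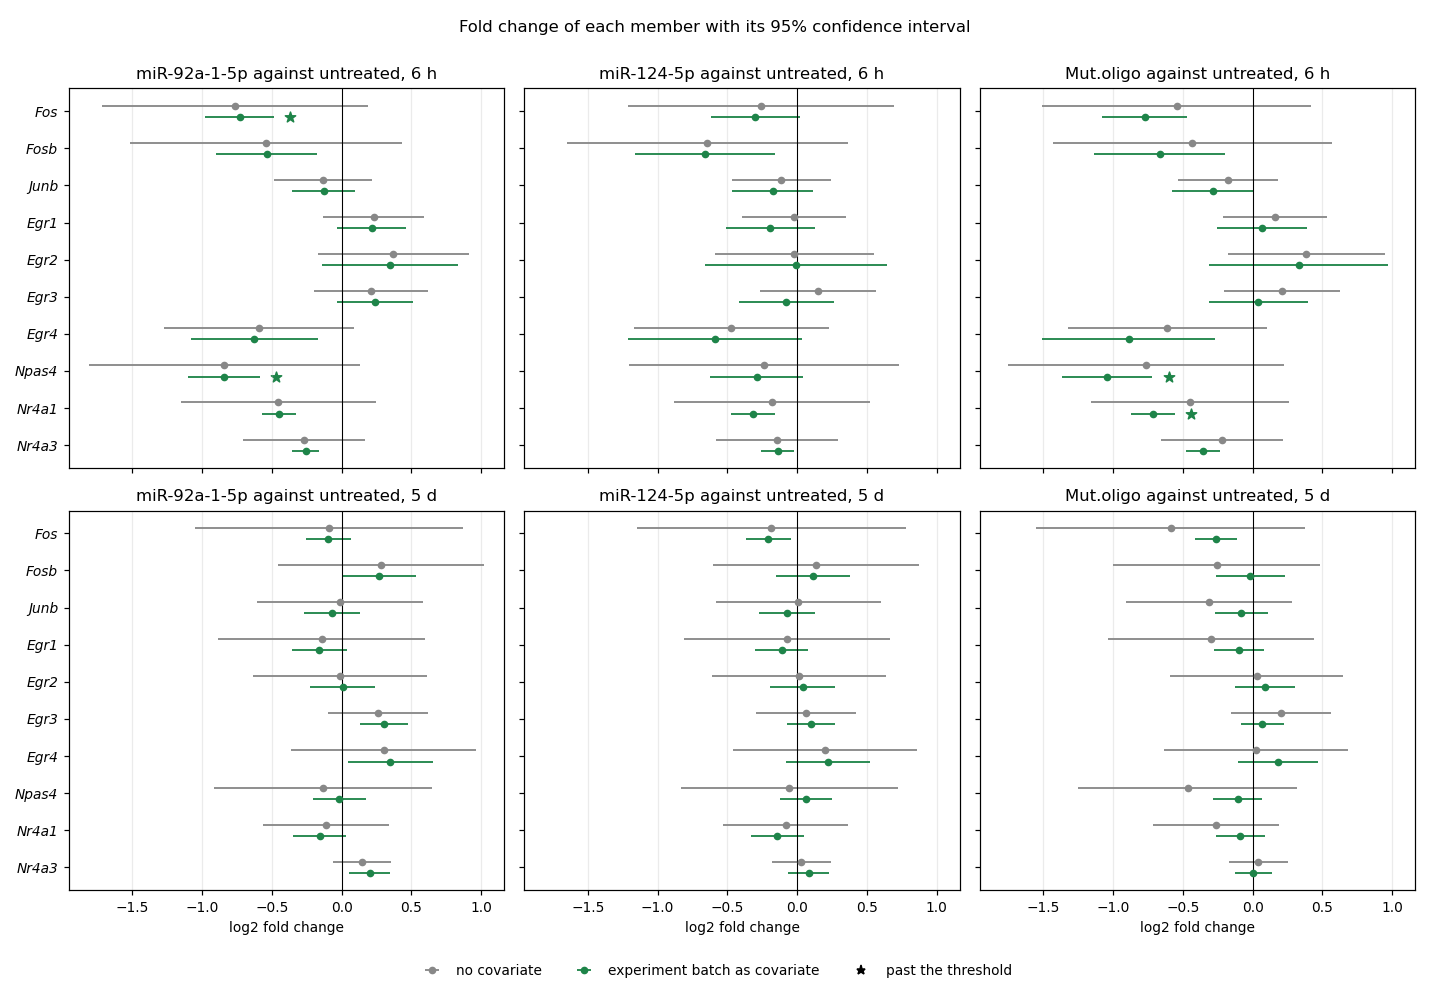
Log2 fold change of the 10 genes against untreated at 6 h and 5 d for the 3 oligoribonucleotides, in the fits that leave out or include the batch; points are edgeR estimates, bars are 95% intervals, and stars mark values past the threshold. At 6 h, intervals with the batch covariate are narrower but for Egr2 after Mut.oligo and miR-124-5p. With this covariate, the intervals of Fos, Npas4, Nr4a1, and Nr4a3 are among those wholly below 0 after miR-92a-1-5p and after Mut.oligo.

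At 5 d, no member passed against untreated. Fos was at 30.2, 5.33, 36.6, and 28.2 CPM in untreated replicates 1 to 4 and at 26.5, 26.4, 14.6, and 24.3 CPM after miR-92a-1-5p. It was at 23.9, 4.77, 12.1, and 24.1 CPM after Mut.oligo and at 23.5, 27.5, 12.5, and 23.2 CPM after miR-124-5p. The untreated group spanned almost the full range, so that the groups overlapped. The untreated library was the highest of its batch in 3 of 3 batches for 1 of 10 members (Fos), a share near the 6.85% of all genes. The mean log2 difference of Fos within batches was -0.23 after Mut.oligo, -0.19 after miR-124-5p, and -0.18 after miR-92a-1-5p. Npas4 was at 8.69, 3.62, 15.1, and 12.5 CPM in untreated neurons, and its mean differences within batches were -0.09 after Mut.oligo, 0.03 after miR-124-5p, and between -0.02 and 0.02 in both miR-92a-1-5p libraries.

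In the edgeR fit of 5 d without a covariate, 0 of 10 members passed in any comparison to untreated, none had an unadjusted p under 0.05, and DESeq2 called 0. Of all 19333 genes, 0% passed after Mut.oligo and miR-124-5p and 0.00517% after miR-92a-1-5p. With the batch covariate, 0 of 10 members passed, whereas 0.0466% of all genes did after Mut.oligo, 0.0259% after miR-124-5p, and 0.352% after miR-92a-1-5p. DESeq2 with the batch called 0 members. An unadjusted p under 0.05 was found for 4 members after miR-92a-1-5p and for 1 member each after the others. The 4 members were Egr3 at 0.30 (SE 0.0788, edgeR adjusted p = 0.138), Nr4a3 at 0.20 (SE 0.0679, adjusted p = 0.296), Egr4 at 0.35 (SE 0.141, adjusted p = 0.411), and Fosb at 0.27 (SE 0.121, adjusted p = 0.449), all higher. The single member was Fos in both other comparisons, at -0.21 (SE 0.0735, adjusted p = 0.808) after miR-124-5p and -0.26 (SE 0.0695, adjusted p = 0.6) after Mut.oligo. Lower in every shared batch were 1 member after Mut.oligo (15.2% of all genes), 4 after miR-124-5p (29.9%), and 3 after miR-92a-1-5p (28.6%). Higher in every shared batch were 2 members after Mut.oligo (13.6% of all genes), 6 after miR-124-5p (27.4%), and 4 after miR-92a-1-5p (27.3%). Between the oligoribonucleotides, 0 members passed in either fit, with 0% of all genes without a covariate. With the batch, the share of all genes was 0.0103% for miR-92a-1-5p against Mut.oligo, 0.0103% for miR-92a-1-5p against miR-124-5p, and 0% for miR-124-5p against Mut.oligo. Without the batch of untreated replicate 2, 0 members passed in the 6 comparisons of 5 d either, and 1 member each had an unadjusted p under 0.05 after miR-92a-1-5p and Mut.oligo. In the fit with the batch covariate, 4 of the 7 oligodendrocyte lineage markers tested were lower after miR-92a-1-5p, 1 after Mut.oligo, and 2 after miR-124-5p. Mog, at no more than 0.062 CPM at 5 d, did not pass the filter on low counts. The part of these markers in the values of the 10 genes was not tested.

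Between the time points, the 10 genes split into the Egr genes and AP-1 subunits, which were higher at 5 d, and the rest. Egr1, at chr18:34859823-34864984 on the plus strand, was at 12.9, 12.6, 10.6, and 10.9 CPM in untreated replicates at 6 h and at 75.4, 25.5, 102, and 100 CPM at 5 d. Over all treatments, it ran from 9.98 to 18.6 CPM at 6 h and from 25.3 to 102 CPM at 5 d. All 16 libraries of 5 d were above all 16 of 6 h for Egr1, Egr2, Egr3, and Egr4, as for 12.5% of all 20425 genes tested. In untreated neurons, 7 of 10 members were higher at 5 d (19.1% of all genes) and 1 of 10 was lower (14.3%). Egr1 rose by 2.66 on the log2 scale (SE 0.32, adjusted p = 3.77e-08), Egr2 by 2.59 (SE 0.309), Egr3 by 1.73 (SE 0.191, adjusted p = 7.45e-09), and Egr4 by 1.43 (SE 0.334, adjusted p = 0.000568) in edgeR. The AP-1 subunits followed, with Fosb at 1.54 (SE 0.429, adjusted p = 0.00302), Junb at 1.00 (SE 0.25, adjusted p = 0.00117), and Fos at 1.14 (SE 0.483, adjusted p = 0.0469). Fos was lost without any of 9 libraries (adjusted p of up to 0.135) and with DESeq2 (adjusted p = 0.0607).

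The orphan receptors and Npas4 did not follow the Egr genes. Nr4a3 ran from 138 to 287 CPM at 6 h and from 114 to 152 CPM at 5 d, and in untreated neurons it fell by 0.75 on the log2 scale (SE 0.172, edgeR adjusted p = 0.00045). Nr4a1 was at -0.59 (SE 0.294, adjusted p = 0.0889). Npas4 was at 0.04 (SE 0.436, 95% interval -0.85 to 0.94), an interval that leaves room for a change of more than 1.5-fold in either direction. The same genes were compared in the other treatments. After Mut.oligo, 6 members were higher and 0 lower (18.7% and 15.4% of all genes). The counts were 7 and 1 after miR-124-5p (19.5% and 14.7%), and 7 and 0 after miR-92a-1-5p (18.3% and 15.7%). Without the batch of untreated replicate 2 of 5 d, the count after Mut.oligo was 7 and 1, with Fos at 1.40 (edgeR adjusted p = 0.00572) and Nr4a3 at -0.55 (adjusted p = 0.0159), and the other counts did not change. Nr4a3 fell by 0.57 (adjusted p = 0.00584) after miR-124-5p, a call lost without miR-124-5p replicate 2 of 6 h (adjusted p = 0.0872). It was at -0.475 (adjusted p = 0.0198, below the minimum fold change) after Mut.oligo and at -0.33 (adjusted p = 0.0999) after miR-92a-1-5p. Fos after Mut.oligo was at 1.10 with an adjusted p of 0.0607.

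No batch spans both time points, so that batch, culture age, and exposure time cannot be told apart in these differences. The astrocyte markers moved with time as well. Their sum was 243 to 680 CPM at 6 h and 1126 to 2427 CPM at 5 d, 7 of 7 markers were higher at 5 d in untreated neurons with a median log2 fold change of 2.46, and none of them was at 0 in any library. In untreated neurons, 2 of 10 neuron markers were higher and 2 lower. The oligodendrocyte lineage markers summed to 118 to 293 CPM at 6 h and to 86.7 to 205 CPM at 5 d, with Mog at 0 in 10 libraries of 5 d, and endothelial and mural markers to 12.6 to 29.1 and 10.96 to 25.2 CPM, with Cldn5 at 0 in 6 and 4 libraries. Tek was at 0 in 1 library of 5 d, and the other markers of these lists were above 0 in every library. The part of any of these cell types in the difference of the 10 genes was not tested. Whether an exposure changed the difference between time points was tested as an interaction, in a fit without a batch covariate. No member and no other gene passed by edgeR (0% for each of the 3 oligoribonucleotides). No member had an unadjusted p under 0.05, and DESeq2 called 0 members. Without the batch of untreated replicate 2 of 5 d, 1 member had one, namely Egr1 after miR-92a-1-5p (-0.66, unadjusted p = 0.0296, edgeR adjusted p = 1).

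**Figure D4:**
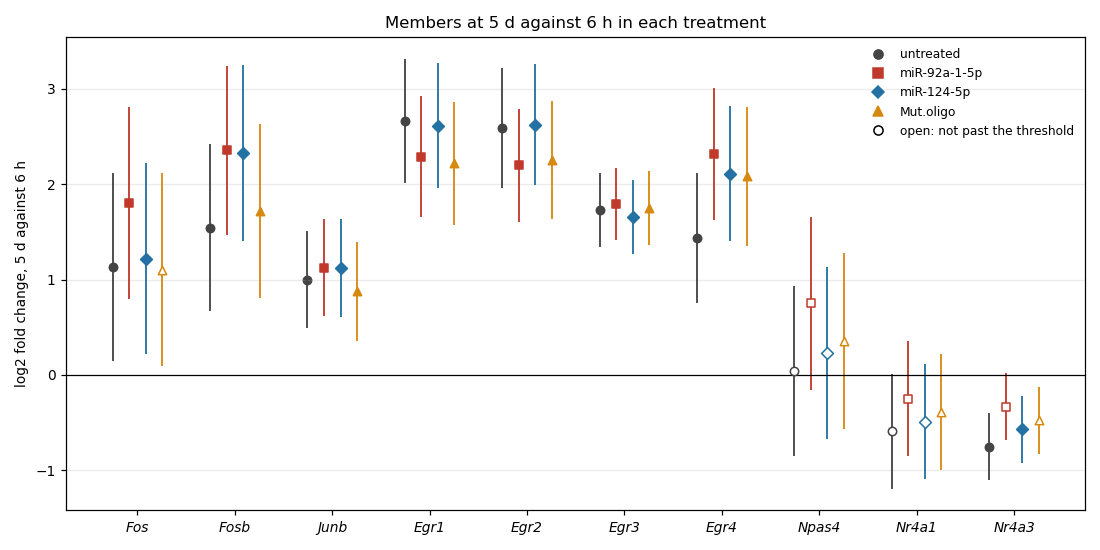
Log2 fold change of the 10 genes at 5 d against 6 h in each of the 4 treatments; points are edgeR estimates and bars are 95% intervals. Egr1 to Egr4 lie between 1.43 and 2.66 in all 4 treatments, Npas4 intervals include 0, and Nr4a3 lies below 0.

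The 10 genes also varied from library to library, and this variation was shared by some of them. At 6 h, the pairs among Fos, Npas4, Nr4a1, and Nr4a3 had a Pearson correlation of log2 CPM between 0.95 and 0.97 over the 16 libraries. For Fos and Nr4a1, Spearman's rho was 0.97, and r was 0.94 without the 2 libraries farthest from the median of Fos. Egr1 was at 0.36 with Fos and Egr3 at -0.38. At 5 d, Fos and Nr4a1 were at 0.89 (rho 0.66, and r 0.78 without the 2 farthest libraries). Nr4a3, by contrast, was at -0.31 with Fos (rho -0.10, and r 0.04 without the 2 farthest libraries) and at 0.67 with Egr3 (rho 0.45, r 0.27). Several of the 16 libraries share a batch or a treatment, so these values describe the libraries and no p is given. The spread between libraries was not equal. At 6 h, the SD of log2 CPM was 0.77 for Npas4 and 0.74 for Fos, but 0.24 for Junb and 0.26 for Egr1. At 5 d, Nr4a3 had the smallest SD with 0.15 and Fos the largest with 0.83, over all 16 libraries, with the 2 that stand apart included.

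**Figure D5:**
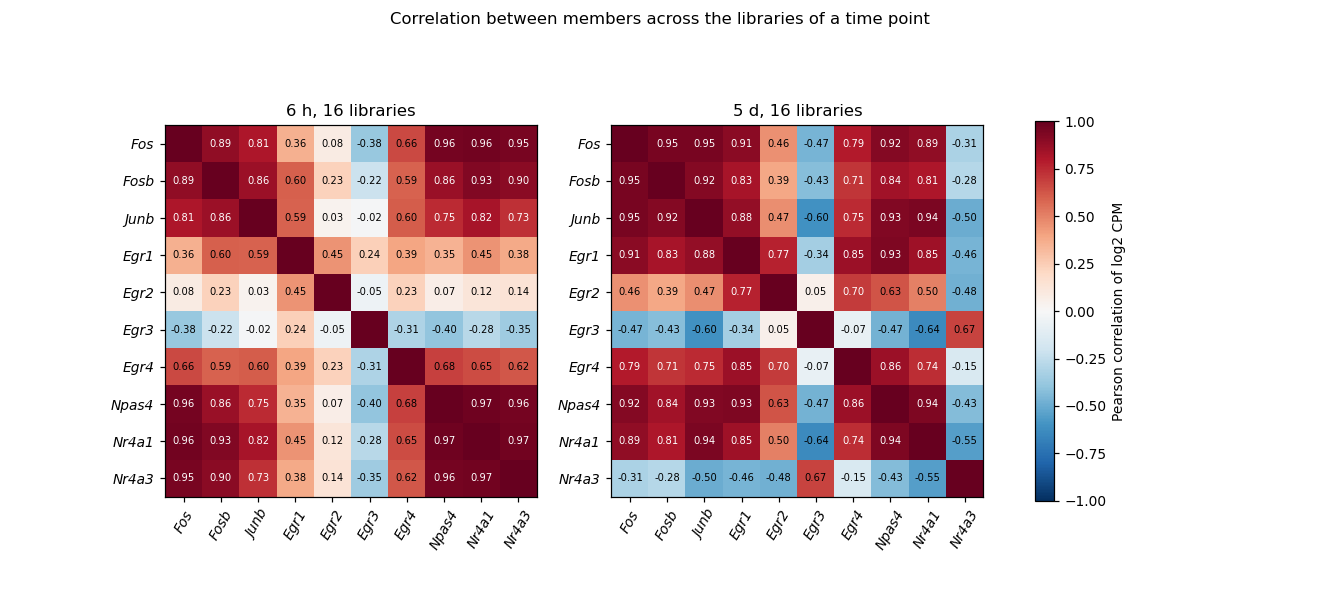
Pearson correlation of log2 CPM between the 10 genes over the 16 libraries of 6 h and of 5 d; colour gives the value from -1 to 1. Fos, Npas4, Nr4a1, and Nr4a3 correlate at 0.95 to 0.97 at 6 h, whereas Nr4a3 is at -0.31 with Fos at 5 d.

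The genes whose log2 CPM followed the mean of the 10 members most closely were sought among all other genes of a time point. At 6 h, they were Trib1 (r = 0.948 over 16 libraries), a pseudokinase that serves as an adaptor of a ubiquitin ligase, Nckap1 (0.932), a subunit of the WAVE complex, Dusp4 (0.931), a phosphatase that acts on ERK, Rgs2 (0.914), a regulator of G protein signalling, and Noc2l (0.905). At 5 d, they were Eif2ak3 (0.941), a kinase of the unfolded protein response, Acbd3 (0.931), Fam120b (0.925), Zscan26 (0.917), and Abcc4 (0.911), a transporter. Among the members, Nr4a1 was closest to the mean at 6 h (0.971) and Egr1 at 5 d (0.97), whereas Egr3 was at -0.23 and -0.33. The values describe 16 libraries that share batches.

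The pathway around the 10 genes was followed in lists of regulators, activators, inhibitors, and later genes. In the comparisons to untreated without a covariate, 0 genes of these lists passed by edgeR. The 20 other immediate early regulators (among them Jun, Atf3, and Nr4a2) held 17 genes below 0 after miR-92a-1-5p at 6 h with the batch covariate, with a median of -0.21 as compared to 0.01 over all genes, and 0 passed. Of the upstream activators (CREB, SRF, and MEF2 factors, their kinases, and calcium channels), 19 of 20 were tested and 0 passed, with a median of -0.002. Of the 12 feedback inhibitors (phosphatases of ERK, Nab and Sprouty proteins), 0 passed, with a median of -0.11. None of these 3 lists held a gene that passed in any of the other comparisons to untreated with the batch covariate.

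Besides Fos, Npas4, and Nr4a1 among the members, only the list of later genes held genes that passed against untreated by edgeR. Of 19 downstream effectors, 5 were lower after miR-92a-1-5p at 6 h with the batch covariate in edgeR, and 14 of 19 were below 0. Of all 18755 genes, 25 were lower and 14 higher, 0.208% in both directions together, and the median log2 fold change was 0.01. The list was chosen with earlier results of these data known, so its counts are no independent support. Bdnf, a neurotrophin, fell by 0.98 on the log2 scale (SE 0.198, adjusted p = 0.0294), from 16.5 to 8.31 CPM as group means. Adcyap1, which encodes the neuropeptide PACAP, fell by 0.66 (SE 0.134, adjusted p = 0.0294). Pcsk1, a protease that matures neuropeptides, fell by 0.61 (SE 0.13, adjusted p = 0.0353), Scg2, a secretogranin, by 0.61 (SE 0.118, adjusted p = 0.0248), and Vgf, a secreted neuropeptide precursor, by 0.56 (SE 0.0956, adjusted p = 0.0111). After Mut.oligo, the same genes were at -0.90 (Bdnf, adjusted p = 0.273), -0.66 (Adcyap1, 0.194), -0.63 (Pcsk1, 0.244), -0.50 (Scg2, 0.311), and -0.53 (Vgf, 0.149), and after miR-124-5p between -0.40 and -0.16. These comparisons share the untreated libraries. At 5 d, Gadd45g, a regulator of DNA demethylation and growth arrest, fell by 0.69 after miR-92a-1-5p (SE 0.132, adjusted p = 0.0411), and the 5 genes of 6 h were between -0.06 and 0.15. Without a covariate, the adjusted p of Scg2 after miR-92a-1-5p at 6 h was 0.941, and that of the other named genes in the comparison where they passed was above it.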

How the data were processed

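The 32 libraries were stranded and read from a single end. Per the labels and the study's methods, the authors mapped reads with STAR to GRCm38, counted them per gene with featureCounts (Subread), and deposited the raw counts, without normalization. Every library was assigned by its label, and 0 columns were left over. Of the identifiers, 49326 had a symbol and 345 had none.

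Genes were kept if 3 libraries or more held 5 counts or more (18755 at 6 h, 19333 at 5 d, 20425 over both). edgeR 4.0.16 in R 4.3.3 (TMM, quasi-likelihood test, Benjamini-Hochberg over all genes) was fitted per time point on 16 libraries without a covariate. Batch, replicate number, DESeq2 1.42.0, RLE size factors, other filters, no minimum fold change, and leaving out each library were alternatives. Time points and interactions were compared in a fit of 8 groups without a batch covariate. In the fit with batch, the 3 libraries alone in their batch carry no weight. Within-batch differences used TMM log2 CPM with a prior count of 2. Intervals are at 95%. The scripts were tested on simulated data.

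Named genes are the 10 members, list genes that passed against untreated in either fit (at most 6 per list, by p), and per time point the 5 genes with the highest correlation with the mean of the members. The members, lists, and tests were chosen with earlier results of these data known, among them genes that were lower together at 6 h, so that this pattern is no independent support. RefSeq start regions of GRCm38.p6 were searched on both strands.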

Additional observations from a re-analysis of the deposited data

Results flagged for a closer look

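For 9 pairs of a gene and an exposure, all within-batch differences from untreated had one sign at 6 h and the opposite sign at 5 d. The share of all genes with such a change of sign was not computed, so whether 9 is many is not known. After miR-92a-1-5p, the mean within-batch log2 difference at 5 d minus that at 6 h was 0.768 for Fosb (-0.48 at 6 h, 0.29 at 5 d) and 0.929 for Egr4 (-0.67, 0.25). It was 0.400 for Nr4a3 (-0.26, 0.14) and -0.488 for Egr1 (0.20, -0.29). These rest on 4 batches at 6 h and 2 at 5 d. In the interaction test of edgeR over all 32 libraries, Egr4 was at 0.89 (adjusted p = 1), Fosb at 0.82 (adjusted p = 1), Nr4a3 at 0.42 (adjusted p = 1), and Egr1 at -0.37 (adjusted p = 1), so that no difference between time points passed. That fit left out the batch. It thus does not use the pairs on which these signs rest and cannot decide whether they differ between time points.

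After miR-124-5p, the difference was 0.869 for Egr4 (-0.55 at 6 h, 0.32 at 5 d), 0.359 for Npas4 (-0.32, 0.03), 0.320 for Fosb (-0.25, 0.07), and 0.233 for Nr4a3 (-0.16, 0.08), over 2 batches at each time point. In the edgeR interaction test, Egr4 was at 0.68, Npas4 at 0.19, Fosb at 0.78, and Nr4a3 at 0.18, each with an adjusted p of 1. After Mut.oligo, it was 1.10 for Egr4 (-0.94 over 2 batches, 0.16 over 3), and the edgeR interaction was 0.65 (adjusted p = 0.866). With 2 batches, one sign in all of them is frequent, as 27% of all genes were lower in both after miR-124-5p at 6 h. Of the 80 groups of 4 libraries, 0 held an outlying library by Dixon's criterion at 95%.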

How the results depend on the processing

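At 6 h against untreated, the number of members that passed without a covariate was 0, and it was 2 after miR-92a-1-5p and 2 after Mut.oligo with the batch covariate, and 2 and 3 with DESeq2 and the batch. In the fit with batch, 4 members passed after miR-92a-1-5p with no minimum fold change. Leaving out 1 library each gave 0 to 2 members after miR-92a-1-5p (0 without miR-92a-1-5p replicate 4 or untreated replicate 2, and 1 without miR-92a-1-5p replicate 2 or untreated replicate 1), 1 to 3 after Mut.oligo, and 0 to 1 for miR-124-5p against Mut.oligo. The median within-batch difference over the members at 5 d was 0.0454 after miR-124-5p and 0.0226 after miR-92a-1-5p, and 0.0254 and -0.00832 when scaled to library totals.

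Some differences against Mut.oligo changed sign with batch. For miR-92a-1-5p at 6 h, Npas4 was at 0.199 (0.206 by DESeq2), Nr4a1 at 0.268 (0.271), and Nr4a3 at 0.0987 (0.0985), and for miR-124-5p at 5 d Nr4a3 was at 0.0795 (0.0818). Junb after miR-124-5p at 5 d was at -0.231 without the batch of untreated replicate 2 and ranged from -0.238 to 0.188 with 1 library left out. With 1 library left out, miR-124-5p against Mut.oligo at 6 h ranged from -0.302 to 0.0106 for Egr1 without a covariate, and with batch from -0.462 to 0.0276 for Egr1 and from -0.691 to 0.185 for Egr2. miR-92a-1-5p against Mut.oligo with batch ranged from -0.118 to 0.205 for Fos, -0.0731 to 0.244 for Junb, -0.182 to 0.293 for Egr1, and -0.374 to 0.269 for Egr2. The cause was not tested.

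With the replicate number as a block, 0 members passed within a time point, and 8 passed between time points in untreated, 6 after Mut.oligo, 8 after miR-124-5p, and 7 after miR-92a-1-5p. The numbers did not pair the libraries: deviations of libraries with the same number from other batches had a median correlation of -0.0668 at 6 h and -0.0672 at 5 d, against 0.278 and 0.190 within a batch. Low counts limit Fosb, Egr2, and Egr4 most at 6 h.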
